A study of Homo sapiens with 48 samples.

Results

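BNIP3, BNIP3L (also named NIX), FUNDC1, PINK1 and FKBP8 are 5 human genes whose proteins mark mitochondria for removal by autophagy, and all 5 were among the 14685 genes of the deposited count tables. The 5 were chosen with earlier results of these data known, and their rows were taken by gene symbol for every arm and time point. BNIP3L mRNA was lower in each of the 4 T-REX libraries than in each of the 12 control libraries at 3 h and at 12 h, and the same held for BNIP3 mRNA at 12 h. Among all genes, 1.65% had all 4 T-REX libraries below all 12 controls at 3 h, 0.422% at 6 h and 1.17% at 12 h. In the main fits FUNDC1 and FKBP8 did not pass the test versus any control at any time. PINK1 passed it versus DMSO at 12 h, as did 10.9% of all genes.

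Mitophagy is the enclosure of damaged or surplus mitochondria in an autophagosome and their breakdown in the lysosome. BNIP3 and BNIP3L are related proteins of the outer mitochondrial membrane that bind LC3 and GABARAP proteins on the growing autophagosome, and the transcription of both genes is raised in low oxygen by the hypoxia-inducible factors (HIF). FUNDC1 and FKBP8 are further receptors of the outer membrane with an LC3-binding motif, whereas PINK1 is a kinase that builds up on depolarized mitochondria, phosphorylates ubiquitin and activates the ubiquitin ligase Parkin.

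RNA was sequenced from HEK293T cells, a human embryonic kidney line that carries the SV40 large T antigen, labelled wild type and transfected in every arm with a plasmid for NCBP1, a subunit of the complex that holds the cap of new transcripts in the nucleus, fused to Halo. In T-REX, a Halo-bound probe (Ht-PreHNE) is opened by light and frees the reactive lipid aldehyde HNE (4-hydroxynonenal) next to the fusion protein. The arms were T-REX (named reaction in the labels), light alone (UV in the labels), probe alone (Pre in the labels) and DMSO, the vehicle, each at 3, 6 and 12 h with 4 libraries from biological replicates, which gives 12 groups and 48 libraries. In the study's methods light alone is defined as probe plus light, probe alone as probe in the dark, and DMSO as vehicle in the dark. As written, that gives light alone the same agents as T-REX, at odds with its name, and the labels say only UV, so whether light alone cells had probe is unresolved. A culture with no plasmid was not analysed here.

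The total count per library lay between 23952455 and 37099535 (median 29405598.5). The level of a gene is given below as counts per 1000000 (CPM), scaled by TMM over the 48 libraries, and its precision is that of 240 counts or more, the lowest count of any of the 5 genes in any library. Of 6 marker genes of HEK293T cells 5 were listed, and PAX2 was not. VIM lay between 437 and 668 CPM and CDH2 between 62.2 and 102 CPM. KRT18 (7.14 to 13.4 CPM), KRT8 (4.39 to 10.4 CPM) and NES (1.45 to 6.75 CPM) were much lower. None of 6 markers of other cell types was listed. NCBP1 lay between 30800 and 92200 CPM, in which plasmid and endogenous transcripts cannot be told apart. In log2 fold change it was higher in T-REX than in DMSO by 0.50 at 3 h (adjusted p = 0.0290) and by 0.73 at 12 h (adjusted p = 0.00252) and than in light alone by 0.80 at 6 h (adjusted p = 0.0214) by edgeR's quasi-likelihood test. It did not pass versus probe alone at any time (−0.04, adjusted p = 0.942 at 12 h), versus DMSO at 6 h or versus light alone at 3 and 12 h. NCBP1 also differed between control arms by the same test. Probe alone was higher than DMSO at 12 h (0.77, adjusted p = 0.00541), and light alone was lower than probe alone at 6 h (−0.99, adjusted p = 0.014). The part of NCBP1 levels in the results below was not tested. In bulk RNA, a lower share of cells with a transcript and less transcript per cell cannot be told apart.

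Because BNIP3 is known as a HIF target, the 250 bases before the start of transcription are given for BNIP3 and FUNDC1 from the promoter table used (RefSeq, GRCh38.p14, both on the minus strand, chr10:131981924-131982173 and chrX:44542860-44543109, each printed from 5′ to 3′ along the gene). The promoter of BNIP3L was left out of this step, and none is given for PINK1 or FKBP8. Capitals mark every match on either strand to ACGTG or GCGTG, the letters of the core that HIF binds.
BNIP3: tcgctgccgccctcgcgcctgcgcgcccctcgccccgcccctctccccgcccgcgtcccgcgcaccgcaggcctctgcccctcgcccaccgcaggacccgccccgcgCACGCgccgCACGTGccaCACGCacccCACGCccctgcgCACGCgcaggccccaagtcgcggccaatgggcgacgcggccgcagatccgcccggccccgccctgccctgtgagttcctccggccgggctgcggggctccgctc
FUNDC1: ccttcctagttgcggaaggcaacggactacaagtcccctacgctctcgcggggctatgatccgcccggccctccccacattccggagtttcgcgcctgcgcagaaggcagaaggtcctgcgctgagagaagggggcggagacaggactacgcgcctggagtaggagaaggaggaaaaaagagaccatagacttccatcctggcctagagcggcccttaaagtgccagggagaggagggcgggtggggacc
The BNIP3 window held 2 matches to ACGTG, which overlap in 1 palindrome from 134 to 129 bases before the start, and 4 matches to GCGTG, read as its reverse complement, between 143 and 100 bases before the start. The FUNDC1 window held none of either. Of the 35116 promoters in the table, 18.5% held ACGTG, 32.2% held GCGTG and 43.2% held one or the other in the same window. A match is a run of letters and not a measured site, and no binding was measured here.

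Compared per kilobase of all annotated exons of the gene, BNIP3L had the highest level of the 5. That length was 5325 bases for BNIP3, 4307 for BNIP3L, 1399 for FUNDC1, 4836 for PINK1 and 2902 for FKBP8. It joins the exons of all annotated transcripts and is not the length of the mRNA present, so the order of the genes depends on it. In DMSO at 3 h, the level per kilobase of exon (GENCODE 29) was 40.3 ± 3.26 CPM per kb for BNIP3L (SD, n = 4), 12.6 ± 1.01 for FUNDC1, 7.33 ± 0.495 for BNIP3, 5.82 ± 1.45 for FKBP8 and 4.75 ± 0.0657 for PINK1. The intervals of mean ± SD overlapped for BNIP3 and FKBP8 and for FKBP8 and PINK1, so the order of those neighbours was within the spread of the libraries. In DMSO at 12 h, BNIP3 stood at 11.6 ± 0.934 CPM per kb and overlapped FUNDC1, at 12.5 ± 2.57. In T-REX at 12 h, BNIP3 was at 6.76 ± 0.988 and BNIP3L at 28.1 ± 1.44 CPM per kb, so BNIP3L was still the highest by this measure.

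The first comparison asked which of the 5 genes differed between T-REX and each of the 3 technical controls at each time. Modification of NCBP1 by HNE was not measured in these libraries. A gene was called where the adjusted p of edgeR's quasi-likelihood test (Benjamini-Hochberg over 14685 genes within a comparison) was at most 0.05, and it was counted as changed where it was called in the same direction versus at least 2 of 3 controls. Under that rule 1 of 5 members was changed at 3 h, 0 at 6 h and 2 at 12 h, and all were lower. Among all genes, 0.769% were lower by the same rule at 3 h, 0.0817% at 6 h and 0.912% at 12 h.

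BNIP3 was the member with the largest change. At 12 h its level was 31.9, 34.7, 43.7 and 33.8 CPM in the T-REX libraries (36.0 ± 5.26, SD, n = 4). It was 63.4, 69.4, 62.9 and 57.0 CPM with light alone (63.2 ± 5.08), 72.1, 69.9, 69.0 and 54.3 CPM with probe alone (66.3 ± 8.14) and 54.8, 65.8, 64.9 and 62.1 CPM with DMSO (61.9 ± 4.97). All 4 T-REX libraries lay below all 12 control libraries, whose lowest value was that of a probe alone library. The log2 fold change (± SE) of T-REX was −0.81 ± 0.097 versus light alone (0.570 of its level, adjusted p = 7.79e-05), −0.89 ± 0.097 versus probe alone (0.541, adjusted p = 1.61e-05) and −0.78 ± 0.097 versus DMSO (0.581, adjusted p = 3.41e-05, edgeR's quasi-likelihood test). These 3 differences were called in every alternative fit and after leaving out each of the 16 libraries in turn. The called share of all genes in these comparisons was 1.29%, 0.701% and 10.9%.

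At 3 h BNIP3 did not separate the arms. The T-REX libraries held 28.7, 35.1, 40.7 and 32.0 CPM (34.1 ± 5.11), within a control range of 30.3 to 43.0 CPM except for the lowest of them. The log2 fold change was −0.01 ± 0.11 versus light alone, −0.16 ± 0.11 versus probe alone and −0.19 ± 0.11 versus DMSO, and the smallest adjusted p of the 3 was 0.317 (edgeR's quasi-likelihood test). At these comparisons 0.197%, 1.05% and 5.99% of all genes were called.

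At 6 h the log2 fold changes of BNIP3 versus each control lay between those of 3 h and 12 h. T-REX libraries held 26.6, 29.5, 32.0 and 28.0 CPM (29.01 ± 2.28), versus 31.6, 42.6, 41.7 and 33.0 CPM with light alone (37.2 ± 5.74). Probe alone gave 52.9, 57.4, 36.9 and 41.9 CPM (47.3 ± 9.51) and DMSO gave 44.4, 39.2, 42.3 and 41.3 CPM (41.8 ± 2.17). A single light alone library fell within the T-REX range, and the other 11 control libraries lay above it. BNIP3 was called lower versus probe alone (−0.70 ± 0.12, adjusted p = 0.0151), and was not called versus DMSO (−0.53 ± 0.12, adjusted p = 0.0644) or light alone (−0.36 ± 0.12, adjusted p = 0.259) by edgeR's quasi-likelihood test, in comparisons that called 0.109%, 0.415% and 0.218% of all genes. BNIP3 was also called versus DMSO by DESeq2 (adjusted p = 0.00363), in a fit of only those 2 arms (adjusted p = 0.000483), with 2 factors of unwanted variation deposited by the authors as covariates (adjusted p = 0.00696), and without light alone replicate 3 or probe alone replicate 2 or 3 (adjusted p 0.0291 to 0.0497). Leaving out T-REX replicate 1, 2 or 4 or probe alone replicate 1 or 2 ended the call versus probe alone (adjusted p 0.0613 to 0.0992), as did a fit of only those 2 arms (adjusted p = 0.0546). With the replicate number as a block that call held (adjusted p = 0.0288).

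BNIP3L, the paralogue of BNIP3 known for the clearing of mitochondria from maturing red cells, was lower in T-REX from the first time point. At 3 h its T-REX libraries held 138, 154, 135 and 127 CPM (139 ± 11.3, SD, n = 4). Light alone gave 163, 167, 174 and 159.7 CPM (166 ± 6.14), probe alone 175, 185, 160.1 and 155 CPM (169 ± 13.5) and DMSO 183, 186, 155 and 170.3 CPM (174 ± 14.1). The highest T-REX library (153.9 CPM) was just under the lowest control library (155.0 CPM). BNIP3L was called lower versus probe alone (−0.27 ± 0.065, adjusted p = 0.0473) and DMSO (−0.32 ± 0.065, adjusted p = 0.00674) and not versus light alone (−0.26 ± 0.065, adjusted p = 0.0738) by edgeR's quasi-likelihood test. The call versus probe alone was near the threshold: it was lost in a fit of only those 2 arms and after leaving out any 1 of 10 libraries (T-REX replicates 1 and 4, light alone 1 and 4, probe alone 1, 2 and 3, DMSO 1, 2 and 4; adjusted p 0.0529 to 0.174), so the count of 1 at 3 h fell to 0 there.

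At 12 h the difference in BNIP3L was larger in size versus all 3 controls. T-REX libraries held 116, 115, 127 and 126 CPM (121 ± 6.22). Light alone gave 168, 194, 178 and 168 CPM (177 ± 12.0), probe alone 160.5, 166, 170.0 and 172 CPM (167 ± 5.01) and DMSO 142, 189, 209.5 and 160.5 CPM (175 ± 29.98). The T-REX libraries again lay below all 12 control libraries, and DMSO was the arm with the widest spread. The log2 fold change was −0.54 ± 0.085 versus light alone (0.686 of its level, adjusted p = 0.00118), −0.47 ± 0.085 versus probe alone (0.724, adjusted p = 0.0102) and −0.53 ± 0.085 versus DMSO (0.691, adjusted p = 0.000567, edgeR's quasi-likelihood test). Without T-REX replicate 1 or 2 the adjusted p versus probe alone was 0.0538 or 0.0517, and BNIP3L was still called versus the other 2 controls.

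At 6 h BNIP3L held 123, 139, 141 and 130.3 CPM in T-REX (133 ± 8.38). Light alone gave 153, 153, 186 and 145 CPM (159 ± 18.3), probe alone 172, 180.5, 182 and 162 CPM (174 ± 9.30) and DMSO 145, 161, 129 and 179 CPM (153 ± 21.3). Of the 12 control libraries, 1 DMSO library fell inside the T-REX range. None of the 3 log2 fold changes, −0.26 ± 0.086, −0.38 ± 0.086 and −0.20 ± 0.086 in that order of controls, was called by edgeR's quasi-likelihood test (adjusted p = 0.259, 0.122 and 0.337). With the same 2 deposited factors as covariates, all 3 were called (adjusted p = 0.00616, 0.000376 and 0.0336), and DESeq2 called the one versus probe alone (adjusted p = 0.0111), as did fits without light alone replicate 3 or DMSO replicate 3 or 4 (adjusted p 0.0204 to 0.0477).

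**Figure D1:**
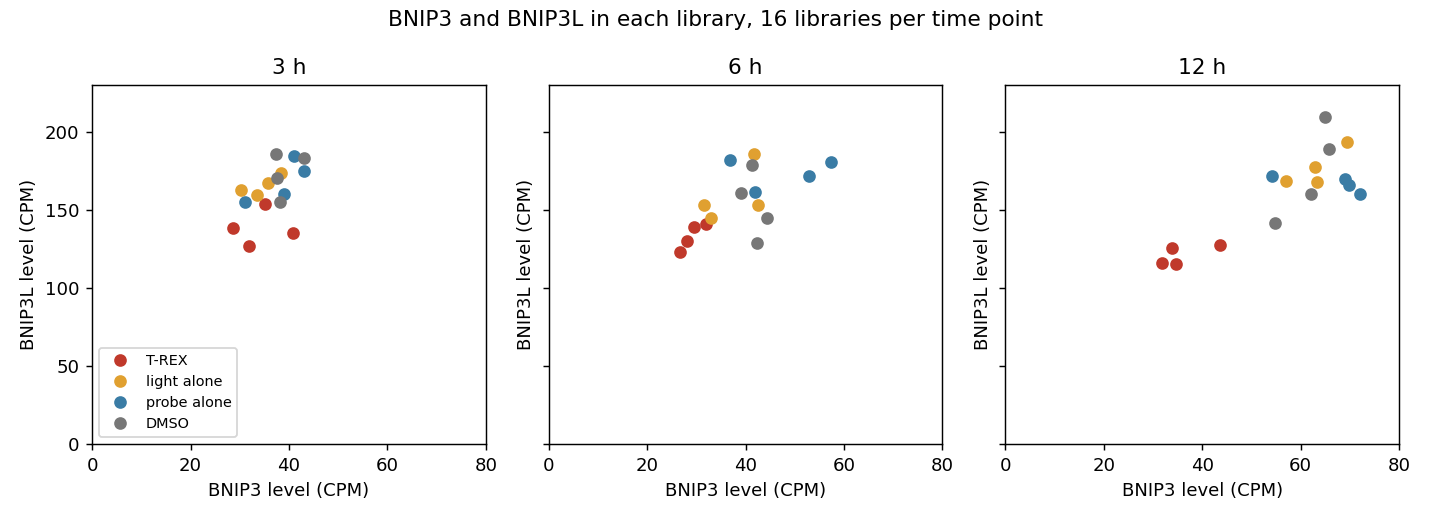
BNIP3 level (horizontal, CPM) versus BNIP3L level (vertical, CPM), both axes from 0, for the 16 libraries of each time point, coloured by arm. The 4 T-REX libraries stand apart at the lower left at 12 h, with BNIP3 at or below 43.7 CPM and BNIP3L at or below 127 CPM, and lie next to the controls along the BNIP3 axis at 3 h.

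Over the 48 libraries, after the mean of each time point was taken away, log2 CPM of BNIP3 and BNIP3L moved together (Pearson r = 0.749, n = 48 libraries that share arms and scaling). Arm means were not taken away, so the lower T-REX levels of both genes given above enter this r and are not separate from it. By the same measure BNIP3 had r = 0.177 with FUNDC1, −0.292 with PINK1 and 0.119 with FKBP8. BNIP3L had r = −0.0189 with FUNDC1, −0.528 with PINK1 and −0.147 with FKBP8. Outside the members, the 5 genes most like BNIP3 were P4HA1 (r = 0.865), TMEM45A (0.861), NRN1 (0.857), LDHA (0.849) and PLOD2 (0.843). Among those most like BNIP3L were KDM3A (r = 0.905), C4orf3 (0.869), AK4 (0.868) and PKIA (0.853). P4HA1 and PLOD2 encode collagen-modifying hydroxylases, LDHA makes lactate from pyruvate, KDM3A is a histone demethylase and AK4 is an adenylate kinase of mitochondria.

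FUNDC1, a receptor with a LIR motif that is controlled by phosphorylation, showed its only separation at 3 h. T-REX libraries then held 21.1, 20.3, 25.3 and 18.1 CPM (21.2 ± 3.00, SD, n = 4). Light alone gave 17.0, 16.2, 13.6 and 17.8 CPM (16.2 ± 1.83), probe alone 19.1, 18.6, 18.5 and 20.5 CPM (19.2 ± 0.945) and DMSO 16.3, 18.4, 16.7 and 19.2 CPM (17.7 ± 1.41). The T-REX libraries lay above all 4 light alone libraries and overlapped probe alone and DMSO. How many of all genes did so was not counted. The log2 fold change was 0.39 ± 0.10 versus light alone (adjusted p = 0.0775), 0.16 ± 0.10 versus probe alone (adjusted p = 0.392) and 0.27 ± 0.10 versus DMSO (adjusted p = 0.111), none of them called by edgeR's quasi-likelihood test. DESeq2 called the first (adjusted p = 0.0198), and the fit with the deposited factors called the first and the last (adjusted p = 0.000704 and 0.0123). That fit also called FUNDC1 between control arms at 3 h. In the main fit 0.197%, 1.05% and 5.99% of all genes were called versus light alone, probe alone and DMSO at 3 h. At 6 h FUNDC1 lay between 13.9 and 18.7 CPM in T-REX and between 15.9 and 23.0 CPM in the controls, and at 12 h between 15.7 and 17.9 and between 12.9 and 20.8 CPM. At those times its log2 fold changes ranged from −0.25 to 0.04 and the smallest adjusted p was 0.597.

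PINK1 was higher in T-REX than in DMSO at 12 h, in a comparison that called 10.9% of all genes. T-REX libraries held 25.3, 25.6, 25.1 and 30.3 CPM (26.6 ± 2.47, SD, n = 4), and DMSO libraries 23.0, 18.3, 17.2 and 23.3 CPM (20.5 ± 3.16). Light alone gave 22.7, 21.4, 24.3 and 24.6 CPM (23.3 ± 1.503) and probe alone 25.4, 25.2, 24.6 and 23.4 CPM (24.7 ± 0.882). The T-REX libraries lay above all DMSO and all light alone libraries, and 2 probe alone libraries reached into their range. The share of all genes with such a separation was not counted. PINK1 was called versus DMSO (0.38 ± 0.093, 1.30 times its level, adjusted p = 0.0116) and was not called versus light alone (0.20 ± 0.093, adjusted p = 0.370) or probe alone (0.11 ± 0.092, adjusted p = 0.751) by edgeR's quasi-likelihood test. The call was kept in 15 of 16 fits without 1 library. It was lost without T-REX replicate 4, the highest library (log2 fold change 0.31, adjusted p = 0.0566). With the deposited factors as covariates it held (0.38 ± 0.074, adjusted p = 8.2e-05, same test), but that fit also called PINK1 between control arms at 12 h. In the main fit PINK1 was higher in probe alone than in DMSO by 0.27 ± 0.094 (adjusted p = 0.0842, same test). In a fit of only T-REX and DMSO the adjusted p was 0.0850.

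Before 12 h PINK1 levels overlapped between all arms. They ran from 22.2 to 26.8 CPM in T-REX and 21.4 to 26.8 CPM in the controls at 3 h, and from 19.1 to 25.2 and 15.96 to 25.7 CPM at 6 h. The 6 log2 fold changes lay between −0.0006 and 0.10, and the smallest adjusted p was 0.548 (edgeR's quasi-likelihood test). PINK1-AS, a transcript from the opposite strand of the PINK1 locus, was also listed. The library kit marks strand, and the setting used for counting is not given in the sources used here, so reads of the 2 genes may not be fully separated. PINK1-AS was not called between T-REX and any control, and at 12 h it held 16.7 ± 0.695 CPM in T-REX and 16.2 ± 2.51 CPM in DMSO (log2 fold change 0.04 ± 0.10, adjusted p = 0.862).

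FKBP8, an outer-membrane receptor of the FK506-binding protein family, was the most variable member, with its highest library 3.20 times its lowest. At 3 h T-REX libraries held 9.12, 14.3, 29.2 and 29.2 CPM (20.4 ± 10.3, SD, n = 4). Light alone gave 14.2, 28.1, 26.3 and 14.6 CPM (20.8 ± 7.42), probe alone 13.4, 13.0, 18.3 and 16.8 CPM (15.4 ± 2.59) and DMSO 20.6, 14.1, 20.4 and 12.5 CPM (16.9 ± 4.20). The T-REX libraries covered the whole range of the 12 control libraries, and their values fell into a low pair and a high pair. The log2 fold changes at 3 h were −0.03 ± 0.37, 0.43 ± 0.37 and 0.28 ± 0.37 versus light alone, probe alone and DMSO, and the smallest adjusted p was 0.561 (edgeR's quasi-likelihood test). With that standard error, a difference of the size measured for BNIP3L was not detectable in FKBP8 at 3 h.

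At 6 and 12 h FKBP8 had smaller standard errors and no call. T-REX libraries held between 14.0 and 21.5 CPM at 6 h and between 14.6 and 22.1 CPM at 12 h, versus 11.4 to 28.9 and 16.8 to 26.5 CPM in the controls. The log2 fold changes lay between −0.22 and 0.13, with a smallest adjusted p of 0.563. The FKBP8 level moved with the first of the deposited factors (RUV1, whose sign is arbitrary and set separately for each time point). At 3 h Pearson r over the 16 libraries was −0.879, at 6 h 0.758 and at 12 h −0.280, and with the second factor r reached 0.625 at 12 h. PINK1 also moved with RUV1 (r = −0.678, 0.849 and −0.501 over the 3 time points). For BNIP3 at 12 h the correlation with RUV1 was 0.0757 and with the second factor 0.0570, and for BNIP3L 0.344 and −0.0378. With both factors as covariates, the 12 h log2 fold changes of BNIP3 were −0.81, −0.89 and −0.79 and those of BNIP3L −0.54, −0.46 and −0.52, and all 6 were called. In that fit FKBP8 was called higher versus probe alone at 3 h (0.31 ± 0.083, adjusted p = 0.00725), and it was also called between control arms at 3 h and 6 h.

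**Figure D2:**
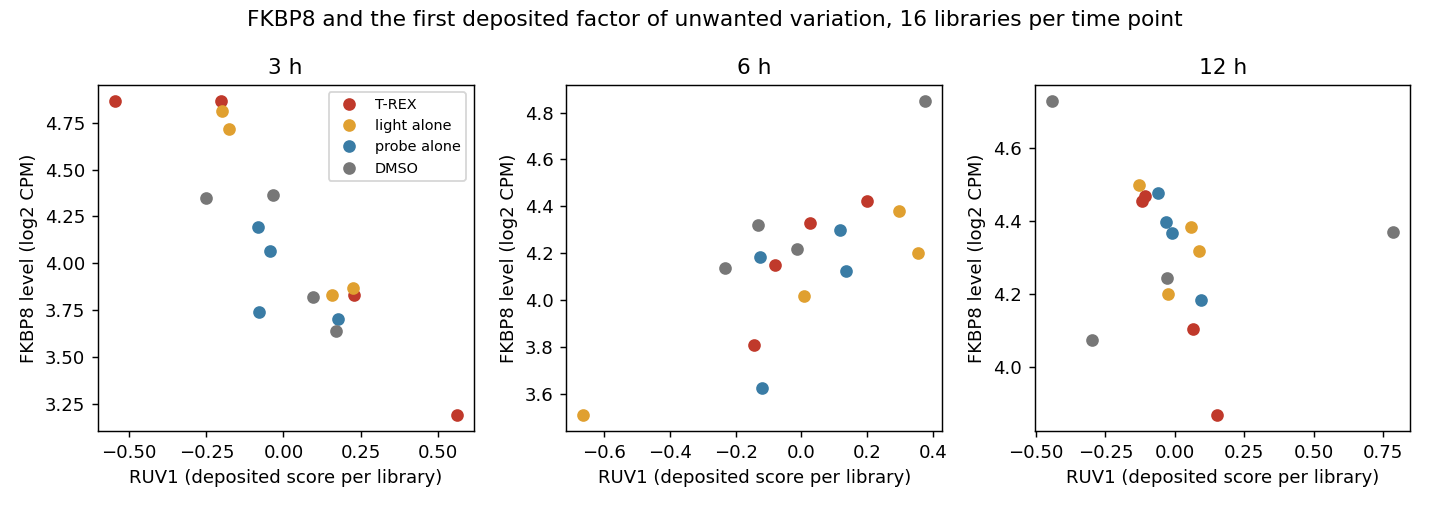
FKBP8 level (vertical, log2 CPM) versus RUV1 (horizontal, a score per library deposited by the authors) for the 16 libraries of each time point, coloured by arm. The points of 3 h follow a falling line (r = −0.879) and those of 6 h a rising one (r = 0.758), and libraries of the same arm lie at both ends.

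**Figure D3:**
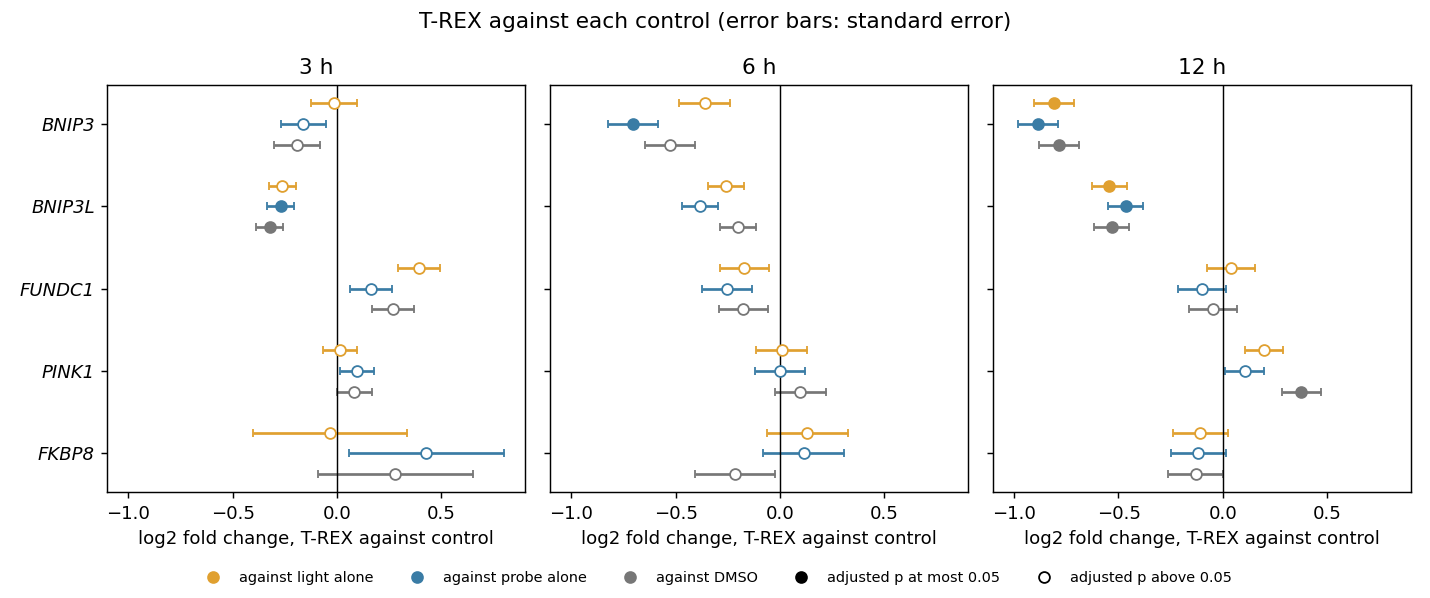
Log2 fold change of T-REX versus each control (horizontal axes; points, with bars of 1 standard error) for the 5 genes at 3, 6 and 12 h; filled points have an adjusted p of at most 0.05. BNIP3 moves from near 0 at 3 h to between −0.78 and −0.89 at 12 h, BNIP3L is below 0 throughout, and FKBP8 at 3 h has the widest bars.

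The control arms gave the background of the same measure. In the main fits no member was called between any pair of control arms at any time by edgeR's quasi-likelihood test, nor by DESeq2. At an unadjusted p of at most 0.05 there were 1, 2 and 1 of 15 tests at 3, 6 and 12 h in the main fits. With the deposited factors as covariates, members were called between control arms: FKBP8 and FUNDC1 at 3 h, FKBP8 at 6 h and PINK1 at 12 h. Over the 9 comparisons of control arms in the main fits, the log2 fold change ranged from −0.34 to 0.18 for BNIP3, from −0.12 to 0.18 for BNIP3L, from −0.23 to 0.11 for FUNDC1, from −0.09 to 0.27 for PINK1 and from −0.35 to 0.46 for FKBP8. The smallest adjusted p was 0.0842, for PINK1 in probe alone versus DMSO at 12 h (0.27 ± 0.094). That PINK1 difference was called without DMSO replicate 1 or 4 (adjusted p = 0.0318 and 0.0263). Among all genes, the called share at 3 h was 0.00681% for light alone versus DMSO, 0.00681% for probe alone versus DMSO and 0.232% for light alone versus probe alone. It was 0.00681%, 0.0272% and 0.0613% at 6 h and 0.0136%, 5.11% and 0.415% at 12 h, in the same order.

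Whether the members changed with time was tested within each arm. BNIP3 rose from 3 to 12 h in the 3 control arms. Its mean went from 39.0 ± 2.64 to 61.9 ± 4.97 CPM in DMSO (log2 fold change 0.66 ± 0.12, adjusted p = 1.74e-05), from 34.4 ± 3.40 to 63.2 ± 5.08 CPM with light alone (0.88 ± 0.12, adjusted p = 1.33e-07) and from 38.5 ± 5.18 to 66.3 ± 8.14 CPM with probe alone (0.78 ± 0.12, adjusted p = 8.51e-07; edgeR's quasi-likelihood test). In T-REX it was 34.1 ± 5.11 CPM at 3 h and 36.0 ± 5.26 CPM at 12 h (0.08 ± 0.12, adjusted p = 0.649). These comparisons called 38.8%, 39.4%, 42.3% and 41.7% of all genes, so a change with time was common, and the time points are separate tables whose preparation cannot be told apart from time.

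Of the other members only FUNDC1, in T-REX, was called from 3 to 12 h. BNIP3L was not called from 3 to 12 h in any arm, with log2 fold changes of 0.01 in DMSO, 0.09 with light alone, −0.02 with probe alone and −0.19 ± 0.088 in T-REX (adjusted p = 0.0731). FUNDC1 fell in T-REX from 3 to 6 h (−0.37, adjusted p = 0.0187, in a comparison that called 23.3% of all genes) and from 3 to 12 h (−0.33 ± 0.12, adjusted p = 0.0190), and was not called from 3 to 12 h in the controls. Tested directly, the T-REX effect on FUNDC1 did not differ between 12 and 3 h versus any control (smallest adjusted p = 0.517, edgeR's quasi-likelihood test). A fall particular to T-REX was therefore not shown. PINK1 and FKBP8 were not called from 3 to 12 h in any arm. PINK1-AS fell from 3 to 12 h in DMSO (−0.28, adjusted p = 0.0131), probe alone (−0.27, adjusted p = 0.0154) and T-REX (−0.33, adjusted p = 0.00320), and was not called with light alone (−0.18, adjusted p = 0.124; edgeR's quasi-likelihood test).

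The difference between the T-REX effects at 12 h and 3 h was then tested itself, as an interaction over all 48 libraries. For BNIP3 it was −0.80 ± 0.17 versus light alone (adjusted p = 0.0647), −0.71 ± 0.17 versus probe alone (adjusted p = 0.0813) and −0.59 ± 0.17 versus DMSO (adjusted p = 0.171), so it did not pass by edgeR's quasi-likelihood test. Few genes did: 0.0204%, 0.0681% and 0.00681% of all genes were called. No member was called, 6 of the 15 tests had an unadjusted p of at most 0.05, and DESeq2 called BNIP3 versus light alone and probe alone (adjusted p = 0.00488 and 0.0168). Without T-REX 3 h replicate 1 both were also called by edgeR's quasi-likelihood test (adjusted p = 0.0297 and 0.0440). The one versus light alone was called in 6 such fits in all (adjusted p 0.0243 to 0.0418), the others being without T-REX 12 h replicate 3, or probe alone 3 h replicate 4, 6 h replicate 2 or 3, or 12 h replicate 4. For BNIP3L the interaction lay between −0.18 and −0.29 with adjusted p of at least 0.531, for FUNDC1 between −0.25 and −0.36, for PINK1 between 0.03 and 0.30 and for FKBP8 between −0.08 and −0.53.

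The neighbours of these genes in mitophagy were then compared, list by list. Among 11 genes for the turnover and partners of BNIP3 and BNIP3L (such as FBXL4 and PPTC7, which limit their protein levels), none was called versus any control at any time, and the median log2 fold change at 12 h was −0.03, −0.05 and −0.15 versus light alone, probe alone and DMSO, beside medians over all genes of 0.0009, 0.0014 and 0.0031. Of 13 other receptors and adaptors none was called versus at least 2 controls. Against DMSO alone, NIPSNAP2 and FUNDC2 were called lower at 3 h (−0.29 and −0.26) and 12 h (−0.22 and −0.21), and OPTN, an ubiquitin-binding adaptor, was called higher at 12 h (0.49, adjusted p = 0.00871). Versus DMSO 5.99% of all genes were called at 3 h and 10.9% at 12 h, and the genes named here and below for a call versus DMSO alone were singled out after their values were seen.

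Of 20 genes of the PINK1 and Parkin pathway, TOMM20 was called lower at 3 h (−0.23) and TOMM22 and VDAC1 at 12 h (−0.29 and −0.33), each versus DMSO only. TOMM20 and TOMM22 are receptors of the mitochondrial import complex, and VDAC1 is the abundant channel of the outer membrane. Of 8 regulators of FUNDC1 1 was called, the casein kinase subunit CSNK2A2, versus DMSO at 12 h (0.15). Of 7 LC3 and GABARAP genes 3 were listed and none was called, and of 26 genes for autophagy initiation and conjugation 1 was called, WIPI1, versus DMSO at 12 h (0.59). These counts are to be read beside the same 5.99% and 10.9% of all genes called versus DMSO at 3 and 12 h. The 13 mitochondrially encoded mRNAs had 1 call at 3 h and 5 at 12 h, all lower and all versus DMSO, with a median log2 fold change at 12 h of −0.0032 versus light alone, −0.12 versus probe alone and −0.21 versus DMSO.

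Of 35 HIF targets other than BNIP3 and BNIP3L 33 were listed, and by the rule of at least 2 of 3 controls 4 were lower at 3 h, 1 at 6 h and 15 at 12 h, with none higher. Among all genes 0.769%, 0.0817% and 0.912% were lower by that rule. At 12 h 15, 13 and 15 of the 33 were called lower versus light alone, probe alone and DMSO, beside 1.29%, 0.701% and 10.9% of all genes called in either direction, and the median log2 fold change was −0.40, −0.35 and −0.36. At 3 h versus light alone the median was −0.0074, with 17 of 33 genes below 0 and none called. The list was drawn up with earlier results of these data known, so these counts are a description. Ranked by the smallest of their 3 differences in size, the first 6 changed genes at 12 h were LDHA (−0.63 to −0.72), EGLN3 (−0.57 to −0.74), TMEM45A (−0.57 to −0.85), P4HA1 (−0.52 to −0.60), PDK1 (−0.48 to −0.59) and PFKFB3 (−0.48 to −0.71). EGLN3 is a prolyl hydroxylase that marks HIF subunits for decay, PDK1 limits the entry of pyruvate into mitochondria and PFKFB3 promotes glycolysis. At 3 h the changed genes were KDM3A, FAM162A, PDK1 and MXI1, with log2 fold changes of −0.24 to −0.34 versus probe alone and −0.24 to −0.38 versus DMSO, and none was called versus light alone. At 6 h KDM3A was lower versus probe alone (−0.43) and DMSO (−0.32).

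Of 6 genes for HIF subunits and their regulators, none was called versus at least 2 controls. HIF1A was called lower versus DMSO at 12 h (−0.22, adjusted p = 0.0242) and EGLN2 higher versus DMSO at 3 h (0.48, adjusted p = 0.0466, edgeR's quasi-likelihood test). Of the 31 genes of the HIF target list with a promoter in the sequence table, 71.0% held ACGTG in the 250 bases before the start of any of their promoters. For ACGTG or GCGTG the share was 83.9%. Of all promoters in the table, 18.5% held ACGTG and 43.2% held either motif. The shares of the list are per gene and those of the table per promoter, so they are not in the same unit.

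**Figure D4:**
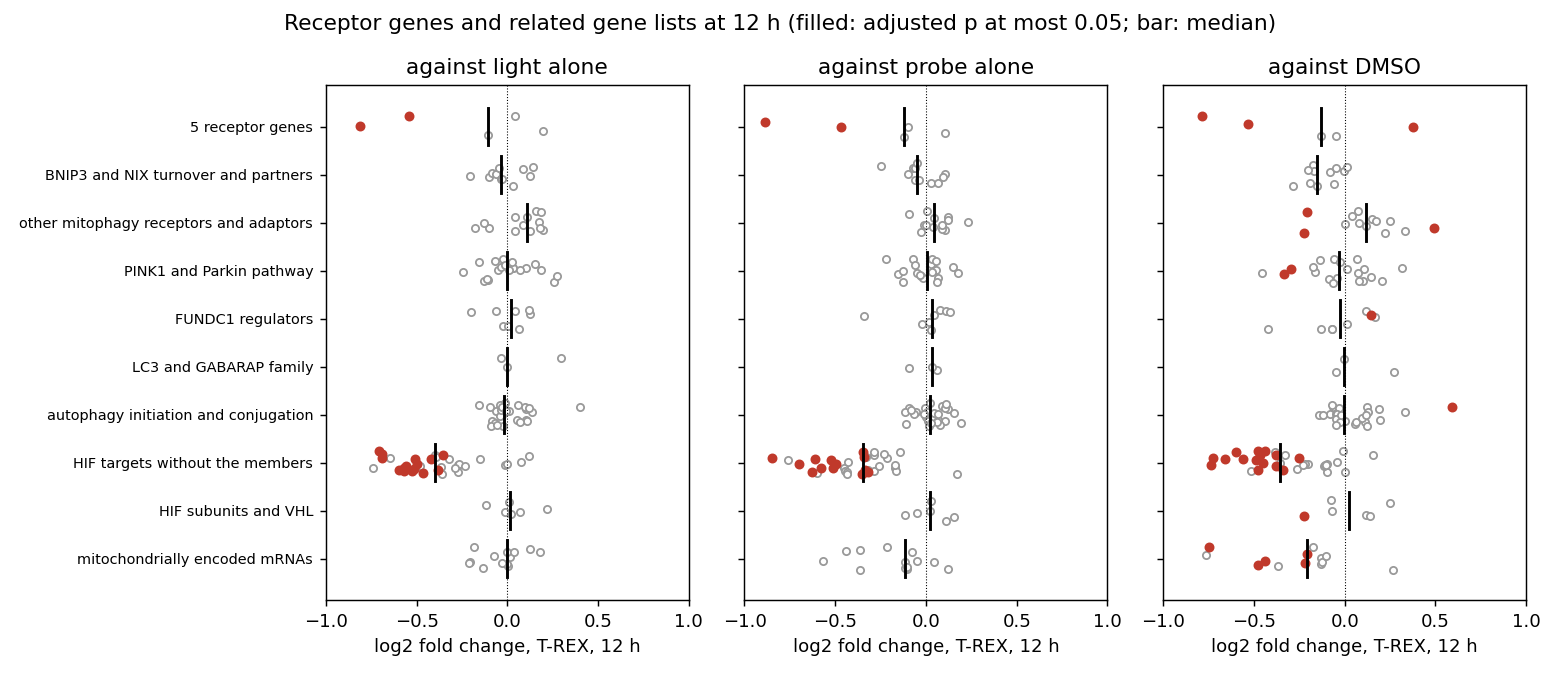
Log2 fold change of T-REX at 12 h (horizontal axes) versus light alone, probe alone and DMSO for the 5 receptor genes and 9 related gene lists (rows); each point is a gene, filled points have an adjusted p of at most 0.05 and bars are medians. The filled points of the HIF targets lie left of 0 in all 3 panels (medians −0.40, −0.35 and −0.36), as do BNIP3 and BNIP3L, and the medians of the other lists lie between −0.21 and 0.12.

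Over the 5 members together, 2 were called lower versus light alone, 2 versus probe alone and 2 versus DMSO at 12 h, and 1, PINK1, was called higher versus DMSO. Among all genes 1.29%, 0.701% and 10.9% were called in these comparisons, and the choice of members with earlier results known makes their counts a description. The median of the 5 log2 fold changes was −0.11, −0.12 and −0.13, and FUNDC1, PINK1 and FKBP8 had no lower call versus any control at any time.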

How the data were processed

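The authors deposited raw counts per gene (whole numbers, not normalized) for the 48 libraries in 1 table per time point, and these were the values tested. Libraries were made with a stranded kit after depletion of ribosomal RNA and sequenced as paired ends; the study's software list names cutadapt, TopHat and Cufflinks for RNA-seq, and the tool that counted reads per gene, the genome build and the annotation are not given in the sources used here. The authors also deposited 2 factors of unwanted variation as a score per library, used only as covariates in an alternative. Deposited log2 CPM and factor-corrected values were not used. Of 14685 gene identifiers 13443 had a symbol.

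For each time point, 1 model over its 16 libraries was fitted with edgeR 4.0.16 in R 4.3.3 (TMM, filterByExpr, robust quasi-likelihood fit and F-test), and time and interaction terms in 1 fit of 48 libraries, with Benjamini-Hochberg adjustment over all genes within each comparison. DESeq2 1.42.0 was an alternative. The steps were tested on simulated data. Total counts lay between 23952455 and 37099535. CPM used TMM factors over 48 libraries (0.954 to 1.05).

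Named were the 5 members throughout, NCBP1, of each list at most 6 genes per time among those called with 1 sign versus 2 or more of the 3 controls, and the 5 genes most like BNIP3 and BNIP3L, of which 1 is not reported here. List genes called versus DMSO alone are also named, chosen after their values were seen. The members and lists were chosen with earlier results of these data known. Other settings were size factors by RLE, no filter, only the 2 arms compared, a replicate block, the deposited factors and leaving out each library. The main fits had no block. Of 24 pairs of libraries with the same replicate number per time point, 12, 11 and 8 correlated above 0.1 in their deviations from the arm means. All 4 pairs did so only for T-REX and probe alone at 6 h (0.102 to 0.474).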

Additional observations from a re-analysis of the deposited data

Results flagged for a closer look

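Of the 60 groups of 4 libraries (5 genes in 12 groups), 3 held a library far from the other 3 by Dixon's test, and chance marks about 1 in 20 groups. BNIP3 in DMSO at 3 h was 43.0 CPM in replicate 1 and between 37.3 and 38.2 CPM in the other libraries. PINK1 with light alone at 6 h was 15.96 CPM in replicate 3 and between 24.1 and 25.7 CPM in the others. PINK1 in T-REX at 12 h was 30.3 CPM in replicate 4 and between 25.1 and 25.6 CPM in the others, and without that library PINK1 was no longer called against DMSO (log2 fold change 0.31, adjusted p = 0.0566, edgeR's quasi-likelihood test). What set these libraries apart was not tested.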

How the results depend on the processing

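The 2 members lower at 12 h, BNIP3 and BNIP3L, were the same 2 under every alternative run and in the 16 fits without 1 library, and the count of members changed from 3 to 12 h in DMSO (1, BNIP3) held in all of its alternatives. The count at 3 h was 1 and became 2 (BNIP3L and FUNDC1) with the deposited factors, 0 in fits of only the 2 arms compared, and ranged from 0 to 1 over the fits without 1 library. The count at 6 h was 0 and became 1 with DESeq2 (BNIP3) and 2 with the deposited factors (BNIP3 and BNIP3L), and ranged from 0 to 1 without 1 library. Between control arms the count was 0 at each time and became 2, 1 and 1 at 3, 6 and 12 h with the deposited factors (FKBP8 and FUNDC1, FKBP8, and PINK1), and at 12 h it ranged from 0 to 1 (PINK1) without 1 library. The count for the difference between times was 0 and became 1 (BNIP3) with DESeq2 and with the replicate block, and ranged from 0 to 1 without 1 library. The replicate block, on numbers whose 4 pairs all correlated above 0.1 only for T-REX and probe alone at 6 h, gave an adjusted p of 0.0179 against light alone and 0.0343 against probe alone for that BNIP3 interaction and moved no other of these counts. With the block BNIP3L was also called against light alone at 3 h (adjusted p = 0.0387 in place of 0.0738). The cause of these shifts was not tested.

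Of the HIF targets, the count of 4 at 3 h became 8 with DESeq2, 9 with the deposited factors and 0 in fits of only the 2 arms, and the count of 1 at 6 h became 4, 8 and 4. Of 990 values of single members under an alternative, 926 kept direction and call, 21 lost a call, 21 gained one and 22 changed sign. All 22 were fits without 1 library on uncalled values: BNIP3 against light alone at 3 h ranged from −0.113 to 0.0602. FKBP8 ranged from −0.222 to 0.0112 against DMSO at 12 h, from −0.258 to 0.213 and −0.0103 to 0.248 against light alone at 3 and 6 h and from −0.0170 to 0.223 against probe alone at 6 h. FUNDC1 against DMSO at 12 h ranged from −0.172 to 0.0494. PINK1 ranged from −0.0425 to 0.0659 and −0.124 to 0.0849 against light alone at 3 and 6 h and from −0.0521 to 0.0739 against probe alone at 6 h. With 4 libraries per arm, the standard error limits what can be called: at 3 h it was 0.37 for FKBP8 and 0.065 for BNIP3L.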

Other observations

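The genes most like the remaining members were found by the same measure over 48 libraries. FKBP8 was most like FLNA (r = 0.937), GAA (0.936), PLXNA1 (0.934), FASN (0.932) and CPSF1 (0.932), closer than any gene was to BNIP3. PINK1 was most like SLC35C2 (0.835), ABR (0.772), CIZ1 (0.768), RANGAP1 (0.761) and IGHMBP2 (0.758). FUNDC1 was most like NDUFA12 (0.742), MT-ND4L (0.740), MTND5P11 (0.728), SNORA12 (0.724) and RN7SL5P (0.707). PINK1 and FKBP8 themselves had r = 0.410. These r values are descriptions of libraries that share arms and scaling.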
